A study of Mus musculus with 6 samples.

Results

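The genes *Cybb*, *Cyba*, *Ncf1*, *Ncf4* and *Rac2*, which encode parts of the phagocyte NADPH oxidase, and the peptidylarginine deiminase genes *Padi4* and *Padi2* were followed in bulk RNA from whole mouse livers. They were taken from the table of raw counts by their symbols and are 7 of the 20140 genes that the table lists. The filter on low counts kept 16370 genes, among them 6 of these 7, and left out *Padi2*. The livers were taken on day 21 from sham, intra-C and intra-S mice, with 2 livers per group. Sham mice were the study's sham-operated controls, taken here to have had no tumor cells. In intra-C mice, cells of the mouse colorectal carcinoma line CT26 were implanted into the cecum, which the study used as an orthotopic model with a premetastatic liver at this time. In intra-S mice, CT26 cells were injected into the spleen, from which they seed the liver, and the study treats these livers as metastatic. The labels give only control, intra-C and intra-S, so the meaning of the names was taken from the study's description of its models, which it draws in BALB/c mice. No altered gene is named for these mice, the cells of all 4 tumor-bearing mice were of the same line, and the study's methods give 1 age range, of young mice, for all its tumor models but no age for each liver. Because the RNA came from all liver cells, more cells of a type and more RNA of a gene per cell cannot be told apart.

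Library totals ran from 32838321 to 43368309 counts. A gene with 0 counts could still have had 3, which is 0.0679 to 0.0928 counts in each 1000000 (CPM), depending on the library. Such limits and the exact intervals given later cover counting error only. A fold given as at least a value sets a measured level against such a limit, without the counting error of that level. Markers of hepatocytes summed to between 104280 and 177005 CPM, which fits the labelled tissue. The intra-S livers were the least alike, with over 4-fold between them for 284 of 7261 genes with a mean of at least 10 CPM, against 36 such genes for the intra-C and 14 for the sham livers. The livers of a group were given as biological replicates, and the p-values measure the spread between these livers. Both comparisons with sham use the same 2 sham livers and are therefore not independent of each other.

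Phagocytes make superoxide with an NADPH oxidase that is put together when the cell is stimulated. Its membrane part is a heterodimer of the catalytic subunit encoded by *Cybb* and the stabilizing subunit encoded by *Cyba*, and its cytosolic part holds the organizer encoded by *Ncf1* and the phosphoinositide-binding subunit encoded by *Ncf4*, which move to the membrane with the small GTPase Rac2. In neutrophils, this oxidant burst can lead to the release of chromatin as neutrophil extracellular traps, in which the deiminase PAD4, encoded by *Padi4*, loosens chromatin by turning histone arginines into citrulline, while *Padi2* encodes a more widely expressed enzyme of the same family.

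The 7 genes lie on 5 chromosomes of the GRCm38.p6 assembly. *Cybb* spans chrX:9435252-9487766, *Cyba* chr8:122424771-122432940 and *Ncf1* chr5:134220053-134229628, all on the minus strand. *Ncf4* (chr15:78244164-78262582, plus strand) and *Rac2* (chr15:78559169-78572783, minus strand) lie 296.6 kb apart. *Padi4* (chr4:140745508-140774239, minus strand) and *Padi2* (chr4:140906336-140952586, plus strand) lie 132.1 kb apart in a cluster of deiminase genes. The library kit does not mark strand, and 11.1% of the exon bases of *Ncf1* overlap exons of *Gtf2ird2* on the opposite strand, so reads of both genes from these bases cannot be told apart. For *Padi2* 2.97% of the exon bases overlap the antisense gene *Gm13031*, and for the other 5 genes 0 exon bases overlap another gene.

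RefSeq promoter windows matched 5 of the 7 genes, and those of 4 genes that were higher than in sham in both tumor-bearing groups are shown here because they differ in their sequence make-up. Each is the 250 bases before a start site, 5′ to 3′ on the gene's strand, at chrX:9469325-9469574 for *Cybb*, chr8:122432941-122433190 for *Cyba*, chr5:134229626-134229875 for *Ncf1* and chr4:140774204-140774453 for *Padi4*, all minus strand of GRCm38.p6. The *Cybb* window precedes a start that lies inside the annotated span of the gene. Capitals mark the matches, on either strand, of 6 motifs: the PU.1 core GAGGAA, the C/EBP motif TTGCNNAA, the interferon response motif (GAAA, any 2 bases and GAAA), the CCAAT box CCAAT, the TATA box TATAAA and the GC box GGGCGG.
Cybb: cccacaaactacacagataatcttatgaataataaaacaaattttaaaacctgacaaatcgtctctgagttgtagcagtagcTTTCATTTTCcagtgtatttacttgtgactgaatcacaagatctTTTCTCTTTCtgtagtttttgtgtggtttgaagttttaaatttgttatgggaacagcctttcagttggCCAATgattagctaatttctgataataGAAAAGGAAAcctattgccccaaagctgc
Cyba: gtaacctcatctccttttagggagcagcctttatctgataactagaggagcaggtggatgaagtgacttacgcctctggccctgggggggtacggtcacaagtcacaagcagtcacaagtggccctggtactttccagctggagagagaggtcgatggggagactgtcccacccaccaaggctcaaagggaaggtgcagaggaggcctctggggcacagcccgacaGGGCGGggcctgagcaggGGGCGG
Ncf1: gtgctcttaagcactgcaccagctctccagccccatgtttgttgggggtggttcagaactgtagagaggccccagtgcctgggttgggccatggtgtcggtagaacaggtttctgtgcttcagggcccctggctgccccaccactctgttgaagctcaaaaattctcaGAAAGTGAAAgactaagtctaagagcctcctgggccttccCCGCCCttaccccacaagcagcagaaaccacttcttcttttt
Padi4: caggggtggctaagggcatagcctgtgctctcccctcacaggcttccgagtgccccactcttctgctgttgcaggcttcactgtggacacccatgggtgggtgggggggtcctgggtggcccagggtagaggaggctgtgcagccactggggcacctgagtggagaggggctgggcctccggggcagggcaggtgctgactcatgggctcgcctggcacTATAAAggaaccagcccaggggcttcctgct

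The *Cybb* window held 3 matches of the interferon response motif, beginning 168, 124 and 29 bases before the start, and a CCAAT box 56 bases before it. A match of the interferon response motif was found in 2.98% of 32851 RefSeq windows of this length. At least 3 matches, a cut set by the *Cybb* window itself, were found in 4 of them (0.0122%), which include that window. No such count was made for the other motifs. *Ncf1* held 1 such match, 82 bases before its start, with a GC box at 42 bases. *Cyba* held a pair of GC boxes, 24 and 6 bases before the start, and *Padi4* a TATA box at 31 bases. In the *Padi2* window there were 3 GC boxes and a CCAAT box. Of all windows, 32.7% held a GC box, 33.8% a CCAAT box and 12.4% a TATA box. The PU.1 core (23.3% of windows) and the C/EBP motif (9.56%) had 0 matches in the 5 windows, which says only that these letters are not in them. The share of G and C was 34% in the *Cybb* window and 66% in that of *Padi4*. A match is a description of the sequence and not a measured binding site.

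Compared with sham livers, all 6 tested genes were higher in intra-C livers and all 6 in intra-S livers, and 0 were lower. *Padi4*, with 0 counts in both sham livers, passed the filter on low counts only through the tumor-bearing livers. Its call is therefore not independent of that filter. The call was made with edgeR's quasi-likelihood test at a Benjamini-Hochberg adjusted p under 0.05 over all tested genes. Among all 16370 genes, 4.92% were called higher and 2.38% lower in intra-C livers, and 6.78% higher and 3.95% lower in intra-S livers. The median log2 fold change of the 6 genes was 2.86 in intra-C and 2.75 in intra-S livers, while that of all tested genes was 0.01 and 0.04. For all 6 genes, both intra-C and both intra-S livers lay above both sham livers, a pattern found in 34.4% and 30.4% of all tested genes, respectively. The calls depend on the sham livers: without either of them, 0 of the 6 genes and 0 of all genes were called in either comparison, although the directions held. Without intra-C replicate 1 or replicate 2, 2 and 1 of the genes were called in intra-C livers, respectively.

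**Figure D1:**
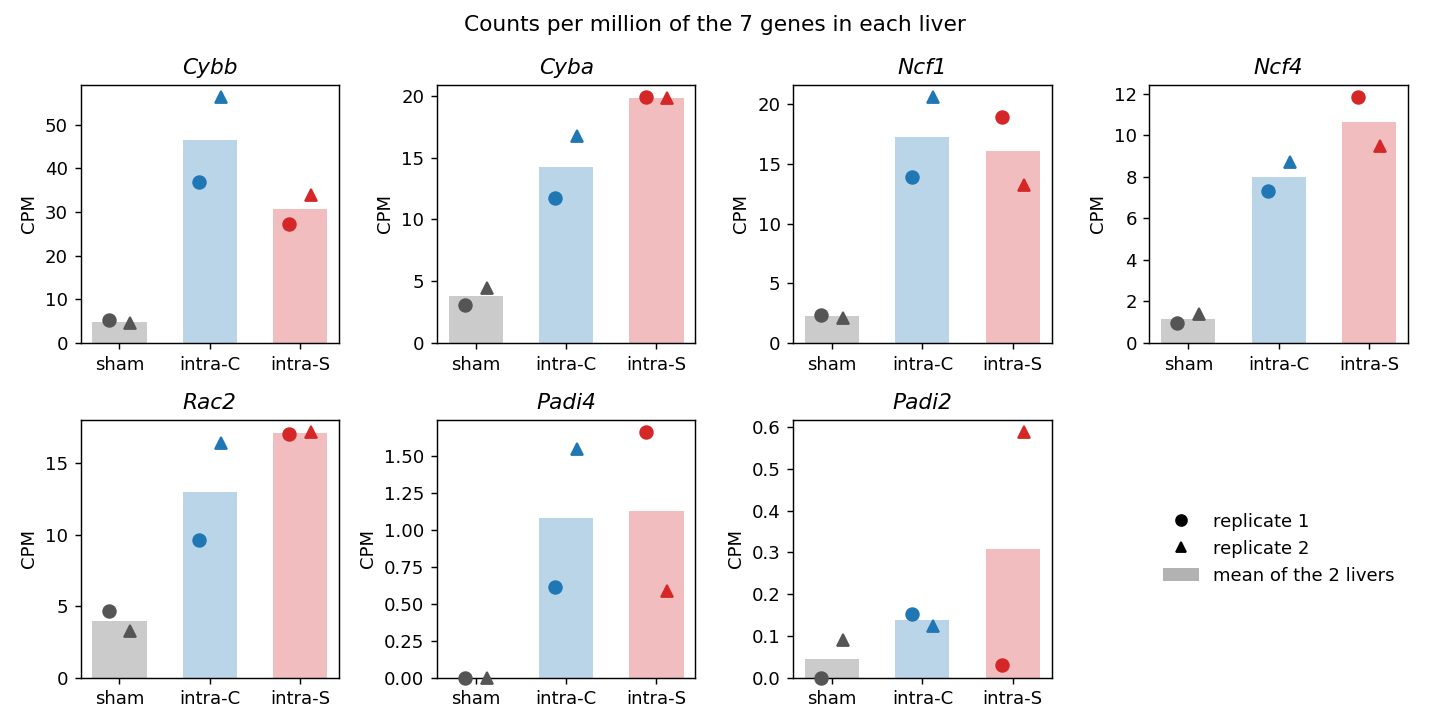
CPM (TMM-scaled) of each of the 7 genes in each of the 6 livers, on a linear axis from 0 with its own range per gene. Points are single livers (circle, replicate 1, and triangle, replicate 2) and bars the mean of 2 livers; for *Cybb*, *Cyba*, *Ncf1*, *Ncf4*, *Rac2* and *Padi4*, every tumor-bearing liver lies above both sham livers, and for *Padi2* they overlap.

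Of the membrane subunits, *Cybb* (gene ID 13058) encodes the chain that carries electrons from NADPH across the membrane to oxygen. It was measured at 36.8 and 56.3 CPM in the intra-C livers, 27.3 and 34.0 CPM in the intra-S livers, and at 5.17 and 4.62 CPM in sham. Both intra-C livers lay above both intra-S livers, and the lowest of these 4 lay above both sham livers. *Cybb* rose 9.50-fold in intra-C livers (log2 fold change 3.25 ± 0.28 (SE), adjusted p = 0.00664) and 6.25-fold in intra-S livers (2.64 ± 0.28, adjusted p = 0.0067). Between intra-S and intra-C livers its log2 difference was -0.60, with a 95% interval from -1.23 to 0.018 and an adjusted p of 0.38.

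*Cyba* (gene ID 13057) encodes the partner chain that stabilizes the heterodimer and docks the cytosolic subunits. Its level was 11.8 and 16.8 CPM in intra-C, 19.9 and 19.8 CPM in intra-S and 3.10 and 4.48 CPM in sham livers. Here the intra-S livers lay above the intra-C livers, which is the reverse of the order seen for *Cybb*. The increase over sham was 3.75-fold in intra-C livers (log2 fold change 1.91 ± 0.29, adjusted p = 0.0195) and 5.23-fold in intra-S livers (2.39 ± 0.29, adjusted p = 0.00952). The direct difference between intra-S and intra-C livers was 0.48 on the log2 scale (95% interval -0.19 to 1.14, adjusted p = 0.477).

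Among the cytosolic subunits, *Ncf1* (gene ID 17969), the organizer that brings the cytosolic complex to the membrane once it is phosphorylated, had 13.9 and 20.6 CPM in intra-C livers, 19.0 and 13.2 CPM in intra-S livers and 2.34 and 2.13 CPM in sham livers. The intra-C and intra-S livers overlapped, with the lowest of the 4 values in an intra-S and the highest in an intra-C liver. *Ncf1* rose 7.71-fold in intra-C livers (log2 fold change 2.95 ± 0.32, adjusted p = 0.00836) and 7.20-fold in intra-S livers (2.85 ± 0.32, adjusted p = 0.00749). The direct difference of -0.10 had a 95% interval from -0.79 to 0.60 on the log2 scale. Its sign turned when intra-C replicate 2 (0.20) or intra-S replicate 2 (0.14) was left out.

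*Ncf4* (gene ID 17972) encodes the subunit that binds phosphatidylinositol 3-phosphate on phagosomes. Its level was 7.31 and 8.72 CPM in intra-C, 11.8 and 9.49 CPM in intra-S and 0.936 and 1.40 CPM in sham livers. Both intra-S livers lay above both intra-C livers. The rise over sham was 6.82-fold in intra-C livers (log2 fold change 2.77 ± 0.32, adjusted p = 0.0103) and 9.08-fold in intra-S livers (3.18 ± 0.32, adjusted p = 0.00638), the largest of the 5 oxidase genes in intra-S livers. For intra-S against intra-C livers the log2 difference was 0.41 (95% interval -0.29 to 1.12).

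*Rac2* (gene ID 19354) encodes the GTPase of blood cells that switches the assembled oxidase on. It was measured at 9.65 and 16.4 CPM in intra-C livers, 17.1 and 17.2 CPM in intra-S livers and 4.63 and 3.24 CPM in sham livers. The sham livers were the lowest and both intra-S livers the highest. *Rac2* rose 3.31-fold in intra-C livers (log2 fold change 1.73 ± 0.33, adjusted p = 0.0349) and 4.36-fold in intra-S livers (2.12 ± 0.33, adjusted p = 0.0167), the smallest of the 5 rises in both groups. For intra-S against intra-C livers the log2 difference was 0.40 (95% interval -0.37 to 1.17). In intra-C livers this call was lost without TMM scaling (adjusted p = 0.0546), with the replicate number as a block (adjusted p = 0.0522) and with limma on log2(TPM + 1) (adjusted p = 0.0654) and log2(TPM + 0.1) (adjusted p = 0.0574). *Rac1*, its widely expressed relative, had 99.5 and 93.6 CPM in intra-C, 114 and 103 CPM in intra-S and 96.2 and 106 CPM in sham livers, and no call was made for it (adjusted p = 0.847 and 0.756, with 95% intervals of the log2 fold change from -0.52 to 0.38 and from -0.35 to 0.55).

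**Figure D2:**
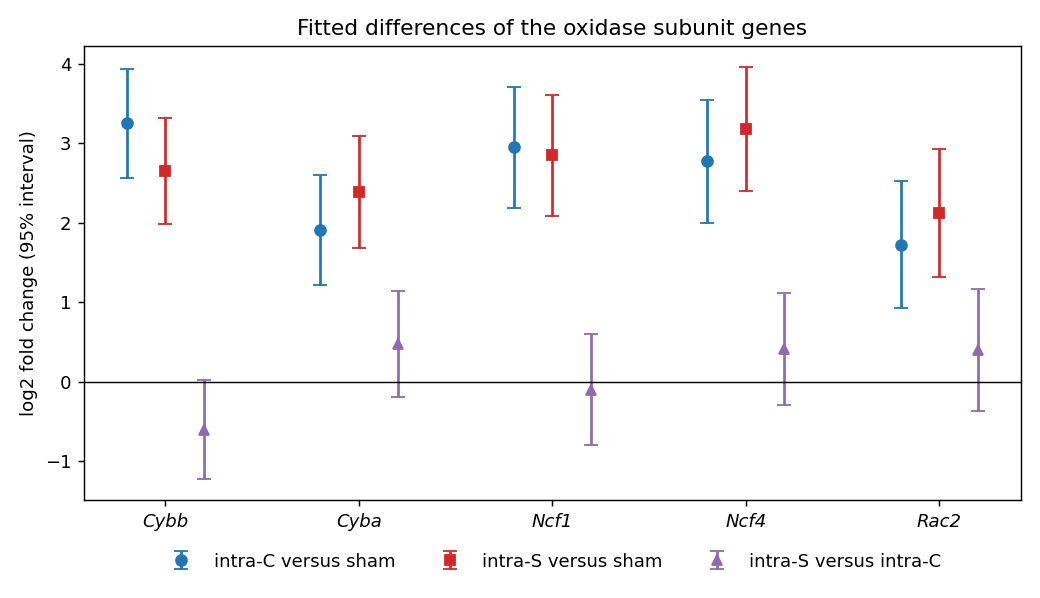
Fitted log2 fold changes of the 5 oxidase genes (points) with 95% intervals (bars) from edgeR, for intra-C versus sham, intra-S versus sham and intra-S versus intra-C livers, with 2 livers per group. The intervals of both comparisons with sham lie above 0 for all 5 genes, the lowest bound being 0.93 for *Rac2* in intra-C livers, and those of intra-S versus intra-C include 0.

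*Padi4* (gene ID 18602) was read 24 and 50 times in the intra-C livers, 57 and 24 times in the intra-S livers and 0 times in both sham livers. This corresponds to 0.611 and 1.55 CPM, 1.66 and 0.589 CPM, and at most 0.0739 and 0.0679 CPM, respectively. The livers of the tumor-bearing groups overlapped almost fully, and the spread within each group was over 2-fold. Against the higher of the sham limits, the group mean was at least 14.6-fold higher in intra-C and at least 15.2-fold higher in intra-S livers, and the lower liver of each group was at least 8.27-fold and at least 7.97-fold higher. With edgeR's test the adjusted p was 0.0376 in intra-C and 0.0305 in intra-S livers. As the filter kept *Padi4* only for its counts in these livers, these p-values add no support beyond the counts. These calls were lost with limma on log2(TPM + 1) (adjusted p = 0.144 and 0.136) and on log2(TPM + 0.1) (adjusted p = 0.0622 and 0.0532). The call was also lost in intra-C livers with the replicate number as a block (adjusted p = 0.0595) and in intra-S livers with only the 2 groups compared (adjusted p = 0.0693).

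*Padi2* (gene ID 18600) was too low to be tested. It was read 6 and 4 times in intra-C livers, 1 and 24 times in intra-S livers and 0 and 4 times in sham livers. A single liver, intra-S replicate 2, held 24 of the 25 counts of its group, at 0.589 CPM against 0.0292 CPM in the other liver. The ratio of the summed counts to sham, scaled by library size, was 2.96 (exact 95% interval 0.854 to 12.9) in intra-C and 7.06 (2.44 to 27.9) in intra-S livers. These intervals cover counting error only, so no difference between the groups is drawn from them. In that intra-S liver *Padi2* and *Padi4* had the same count of 24, whereas in intra-S replicate 1 *Padi4* had 57 counts and *Padi2* 1.

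No gene was called between intra-S and intra-C livers, neither among the 6 genes nor elsewhere (0% of 16370). The lowest adjusted p was 0.113. Without adjustment, 1144 genes had a p under 0.05 in favour of intra-S and 1049 in favour of intra-C livers, the 6 genes not among them. DESeq2 called 234 genes higher and 272 lower in this comparison, again with 0 of the 6 genes. For *Cyba*, *Ncf4* and *Rac2* both intra-S livers lay above both intra-C livers, as for 21.9% of all tested genes, and for *Cybb* both lay below, as for 21.5%. A p that misses the threshold does not show that the groups are alike. The intervals given above allow *Cybb* to be as much as 1.23 lower, and *Cyba*, *Ncf4* and *Rac2* over 1.1 higher, in intra-S livers on the log2 scale, and for *Padi4* the interval ran from -1.89 to 2.01.

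The levels of the genes were compared with each other in TPM, which corrects for gene length. The TPM of the 5 oxidase genes summed to 67.8 and 105 in intra-C, 90.4 and 93.1 in intra-S and 18.1 and 21.3 in sham livers. *Cyba* RNA was the most abundant of the 5 per length in all 6 livers, with 42.9% to 62.1% of the sum. *Cyba* held 43.7% and 42.9% of the sum in the intra-C livers, 51.2% and 53.2% in the intra-S livers and 50.8% and 62.1% in the sham livers, so that both intra-C livers lay below the other 4. *Cybb* held 21.6% and 22.7% of the sum in the intra-C livers, 11.1% and 14.4% in the intra-S livers and 13.4% and 10.1% in the sham livers. For *Cybb*, both intra-C livers lay above the other 4.

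Put as a ratio, there were 2.02 and 1.89 *Cyba* transcripts per *Cybb* transcript in the intra-C livers, 4.62 and 3.69 in the intra-S livers and 3.80 and 6.14 in the sham livers. The ratio was 2.11-fold higher in intra-S than in intra-C livers, and with 2 livers against 2 the exact two-sided permutation p was 0.333, the smallest such a test can give. Shares of summed CPM, which leave out the length correction, gave *Cybb* a mean of 46.9% in intra-C, 32.5% in intra-S and 30.5% in sham livers, in the same order. On that scale *Cyba* had a mean of 14.5%, 21.04% and 23.7%, also in the same order of groups, and *Cybb* had the largest share in all 6 livers. *Ncf1* and *Ncf4* were near each other in all livers, with an *Ncf1* to *Ncf4* ratio of TPM between 0.765 and 1.37. *Rac2* stayed far below *Rac1*, although its TPM relative to *Rac1* was 0.0756 and 0.136 in intra-C, 0.117 and 0.129 in intra-S and 0.0375 and 0.0237 in sham livers. At 0.21 to 0.593 TPM in the tumor-bearing livers, *Padi4* was the rarest of the 6 tested genes.

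**Figure D3:**
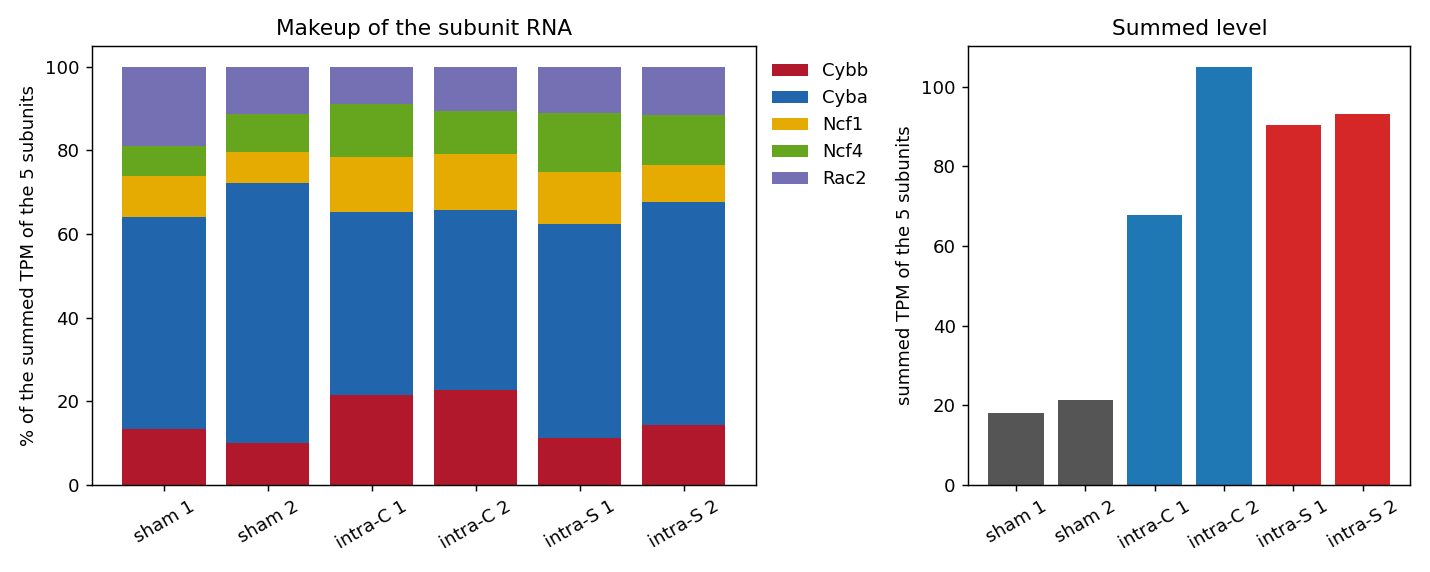
Left, the share of each of the 5 oxidase genes in their summed TPM, in percent, for each of the 6 livers; right, the summed TPM of the 5 genes in each liver. *Cybb* takes 21.6% and 22.7% in the intra-C livers against 10.1% to 14.4% in the others, while the sum is 67.8 or more in every tumor-bearing liver and 21.3 or less in the sham livers.

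Of the other proteins that help the oxidase to assemble, the 4 whose genes are reported here were not called in either comparison (0 of 4 tested genes in each). *Cybc1*, whose product chaperones the membrane heterodimer, had 12.7 and 16.1 CPM in intra-C, 11.8 and 16 CPM in intra-S and 8.50 and 7.31 CPM in sham livers, with a log2 fold change of 0.86 ± 0.26 (adjusted p = 0.0944) and 0.81 ± 0.26 (adjusted p = 0.0914). With only the 2 groups compared, the former passed the test (adjusted p = 0.0185). *Rap1a*, a GTPase that copurifies with the heterodimer, had a log2 fold change of -0.46 ± 0.18 and 0.02 ± 0.18, and in intra-C livers it passed the test in the other direction with only the 2 groups compared (-0.45, adjusted p = 0.0313). The proton channel gene *Hvcn1*, whose product balances the charge that the oxidase moves, had between 0.515 and 1.61 CPM in all livers. Of the other NADPH oxidases, *Noxa1* and *Noxo1*, partners of the colon oxidase, were tested and not called. *Nox4* had at most 0.178 CPM in any liver, and *Duox2* had 76 counts (2.22 CPM) in intra-S replicate 1, 2 counts in intra-S replicate 2 and 0 counts in the other 4 livers. *Nox1*, *Nox3*, *Duox1*, *Duoxa1*, *Duoxa2*, *Padi1*, *Padi3* and *Padi6* are not among the 20140 genes listed, so they have no values here.

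Most receptors and kinases that switch the oxidase on were higher as well. Of 17 tested genes, 12 were higher in intra-C and 14 in intra-S livers, and 0 were lower. With only the 2 groups compared, 15 were higher in intra-C and 9 in intra-S livers. Over all genes, that setting called 2548 higher and 2223 lower in intra-C livers, and 276 and 116 in intra-S livers. Its counts in this and the following lists are to be read beside these totals. Without either intra-C liver, 4 were higher in intra-C livers, and without either sham liver 0 genes of this or any other list were called. The median log2 fold change was 2.28 and 2.64. *Itgam*, the alpha chain of the phagocyte integrin that binds complement-coated particles, was at 9.78 and 13.7 CPM in intra-C, 16.2 and 15.0 CPM in intra-S and 0.197 and 0.498 CPM in sham livers, the largest change of the list in both comparisons (log2 fold change 5.05 ± 0.46, adjusted p = 0.00702, and 5.46 ± 0.46, adjusted p = 0.00578). The Fc receptor gene *Fcgr3* rose by 3.08 ± 0.21 and 3.19 ± 0.22 on the log2 scale. *Pik3r5*, a regulatory subunit of the PI3K that acts behind chemoattractant receptors, rose by 3.22 ± 0.38 in intra-C livers, and the formyl peptide receptor gene *Fpr2* by 3.86 ± 0.49 in intra-S livers. *Fcer1g*, the signaling chain of activating Fc receptors and the most abundant of the list in TPM, rose by 2.03 ± 0.27 and 2.69 ± 0.28. *Akt1*, which most cells express, had a log2 fold change of 0.11 ± 0.18 and -0.16 ± 0.18 and was not called.

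Of 12 regulators of Rac, 7 were higher in intra-C and 5 in intra-S livers, and 0 were lower, with a median log2 fold change of 2.02 and 1.67. Limma called 4 higher in each on both TPM scales, with medians of 0.80 and 0.38 on log2(TPM + 1). The exchange factor gene *Vav3* rose by 3.56 ± 0.65 and 3.57 ± 0.65 on the log2 scale, although limma on log2(TPM + 1) did not call it (adjusted p = 0.128 and 0.121), nor did limma on log2(TPM + 0.1) (adjusted p = 0.0706 and 0.0566). *Dock2*, an exchange factor of blood cells, rose by 2.64 ± 0.32 and 2.32 ± 0.32, and *Arhgdib*, which holds Rac in the cytosol of blood cells, by 2.81 ± 0.33 and 2.75 ± 0.33. The widely expressed *Arhgdia* and *Vav2* were not called, but with only the 2 groups compared both passed in intra-C livers in opposite directions (0.45, adjusted p = 0.0365, and -0.44, adjusted p = 0.037), and 10 of the list were then higher and 1 lower. Without intra-C replicate 1 or 2, 1 and 0 were higher in intra-C livers, and without intra-S replicate 2, 8 were higher and 1 lower in intra-S livers.

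Of the genes that supply cells with NADPH, the following were called. In intra-C livers 1 of 10 was higher (*H6pd*, 1.01 ± 0.21 on the log2 scale, adjusted p = 0.0403) and 1 lower (*Me1*, -1.72 ± 0.32, adjusted p = 0.0316), and in intra-S livers 2 were lower (*Me1*, -1.51 ± 0.31, and *Tkt*, -0.94 ± 0.19). With only the 2 groups compared, 2 were higher and 6 lower in intra-C livers, and 0 were called in intra-S livers. Without either intra-C liver, 0 were called in intra-C livers, and without either intra-S liver 2 were higher and 5 lower there. In intra-S livers, 3 were lower without intra-S replicate 1, 5 were lower and 1 higher without intra-S replicate 2, and 0 were lower without either intra-C liver. *H6pd*, the endoplasmic reticulum enzyme of the pentose phosphate pathway, was at 403 and 379 CPM in intra-C livers and between 172 and 212 CPM in the others, but its call was lost without TMM scaling (adjusted p = 0.0862), with the replicate number as a block (adjusted p = 0.0631) and with limma on log2(TPM + 1) (adjusted p = 0.0512). *G6pdx*, the entry enzyme of the cytosolic pathway, had 7.64 and 16.8 CPM in intra-C, 12.4 and 11.4 CPM in intra-S and 3.65 and 4.35 CPM in sham livers (adjusted p = 0.0605 and 0.0529); it was chosen after its values were seen.

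Of 10 enzymes that remove superoxide and peroxide, which hepatocytes express strongly, 2 were lower and 0 higher in intra-C livers, and in intra-S livers 3 were lower and 1 higher, with a median log2 fold change of -0.85 and -0.84. In intra-C livers, 9 were lower and 1 higher with only the 2 groups compared, when 2223 of all 15649 tested genes were lower and 2548 higher. With DESeq2, 6 were lower and 0 higher there, against 1049 and 1662 over all genes. In intra-S livers, 1 was lower and 0 were higher with only the 2 groups compared. With DESeq2, 5 were lower and 1 higher there, and with limma on both TPM scales 5 were lower and 0 higher. Without either intra-C liver, 0 were called in intra-C livers and 2 were lower in intra-S livers, and without either intra-S liver 9 were lower and 1 higher in intra-C livers. In intra-S livers, the median log2 fold change of the list was -0.50 without intra-S replicate 1 and -1.22 without intra-S replicate 2. *Cat*, which encodes catalase, fell from 2517 and 2253 CPM in sham livers to 697 and 796 CPM in intra-C and 242 and 441 CPM in intra-S livers (log2 fold change -1.68 ± 0.32, adjusted p = 0.035, and -2.80 ± 0.34, adjusted p = 0.00912). *Prdx6* was lower in both groups (-1.14 ± 0.24 and -1.28 ± 0.24), but the call was lost in intra-C livers with the replicate number as a block (adjusted p = 0.0591) and in intra-S livers with only the 2 groups compared (adjusted p = 0.0766). *Gpx1* was called lower in intra-S livers (-2.03 ± 0.27, adjusted p = 0.0124) and had -1.01 ± 0.26 (adjusted p = 0.0717) in intra-C livers, where it passed with DESeq2 (adjusted p = 0.00664) and with only the 2 groups compared (adjusted p = 0.00228); with the latter it missed in intra-S livers (adjusted p = 0.0507). *Sod3*, the secreted superoxide dismutase, was the gene called higher in intra-S livers (1.19 ± 0.26, adjusted p = 0.0394), a call that was lost without TMM scaling (adjusted p = 0.0547), with only the 2 groups compared (adjusted p = 0.0905) and with limma on log2(TPM + 1) and log2(TPM + 0.1) (adjusted p = 0.0687 and 0.0656).

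Of 8 genes for proteins that use oxidase products or decorate extracellular traps, 7 were higher in both comparisons. The exception was *Gsdmd*, which most cells express. *Mpo*, which encodes the myeloperoxidase that turns peroxide into hypochlorous acid, was at 14.5 and 36.0 CPM in intra-C and 19.3 and 21.7 CPM in intra-S livers and had 0 counts in both sham livers, so that it was at least 341-fold and at least 277-fold higher, and in the lower liver of each group at least 196-fold and at least 261-fold. *Elane*, the neutrophil elastase gene, was at 5.76 and 13.9 CPM and at 7.90 and 6.75 CPM, at least 133-fold and at least 99.1-fold higher, and in the lower livers at least 77.9-fold and at least 91.3-fold. *Camp*, a granule peptide gene, was at 6.44 and 17.1 CPM and at 36.1 and 12.6 CPM, at least 159-fold and at least 329-fold higher, and in the lower livers at least 87.2-fold and at least 171-fold. *Lcn2*, which inflamed hepatocytes express as well, was at 1508 and 2819.7 CPM in intra-C and 1629 and 3401 CPM in intra-S livers against 7.76 and 7.65 CPM in sham livers. With genes at 0 in sham held at these limits, the list's median log2 fold change was 7.71 and 7.77. *Mpo*, *Elane*, *Ctsg* and *Camp*, with 0 counts in sham, passed the filter on low counts only through the tumor-bearing livers.

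Among 9 transcription factors known to act on phagocyte oxidase genes, 4 were higher and 1 lower in intra-C livers, and 5 were higher and 0 lower in intra-S livers. *Spi1*, which encodes the myeloid factor PU.1, was at 9.32 and 12.2 CPM in intra-C, 14.9 and 12.9 CPM in intra-S and 2.61 and 2.67 CPM in sham livers (log2 fold change 2.02 ± 0.25, adjusted p = 0.0127, and 2.39 ± 0.26, adjusted p = 0.00698). *Irf8*, its partner in macrophages, rose by 1.61 ± 0.24 and 1.98 ± 0.25 on the log2 scale. *Cebpe*, the factor of late granulocyte maturation, was at 0.789 and 2.60 CPM in intra-C and 2.51 and 0.736 CPM in intra-S livers and had 0 counts in sham livers. It too passed the filter on low counts only through the tumor-bearing livers. *Stat3* rose in both groups, *Cebpd* in intra-S livers (2.76 ± 0.63), and *Cebpa*, which hepatocytes also express, was lower in intra-C livers (-1.70 ± 0.36, adjusted p = 0.0423). In intra-C livers, the calls of *Cebpa* and *Cebpe* were lost with the replicate number as a block (adjusted p = 0.0587 and 0.0595). In intra-S livers, those of *Stat3*, *Cebpd* and *Cebpe* were lost with only the 2 groups compared (adjusted p = 0.0674, 0.0925 and 0.0682), which left 2 genes higher, and that of *Stat3* also without TMM scaling (adjusted p = 0.0537). The calls of *Cebpe* were lost with limma on log2(TPM + 1) as well (adjusted p = 0.0918 and 0.0897). Without either intra-C liver, 0 were called in intra-C and 2 in intra-S livers. Without either intra-S liver, 4 were higher and 2 lower in intra-C livers, and without intra-S replicate 2, 6 were higher and 2 lower in intra-S livers.

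**Figure D4:**
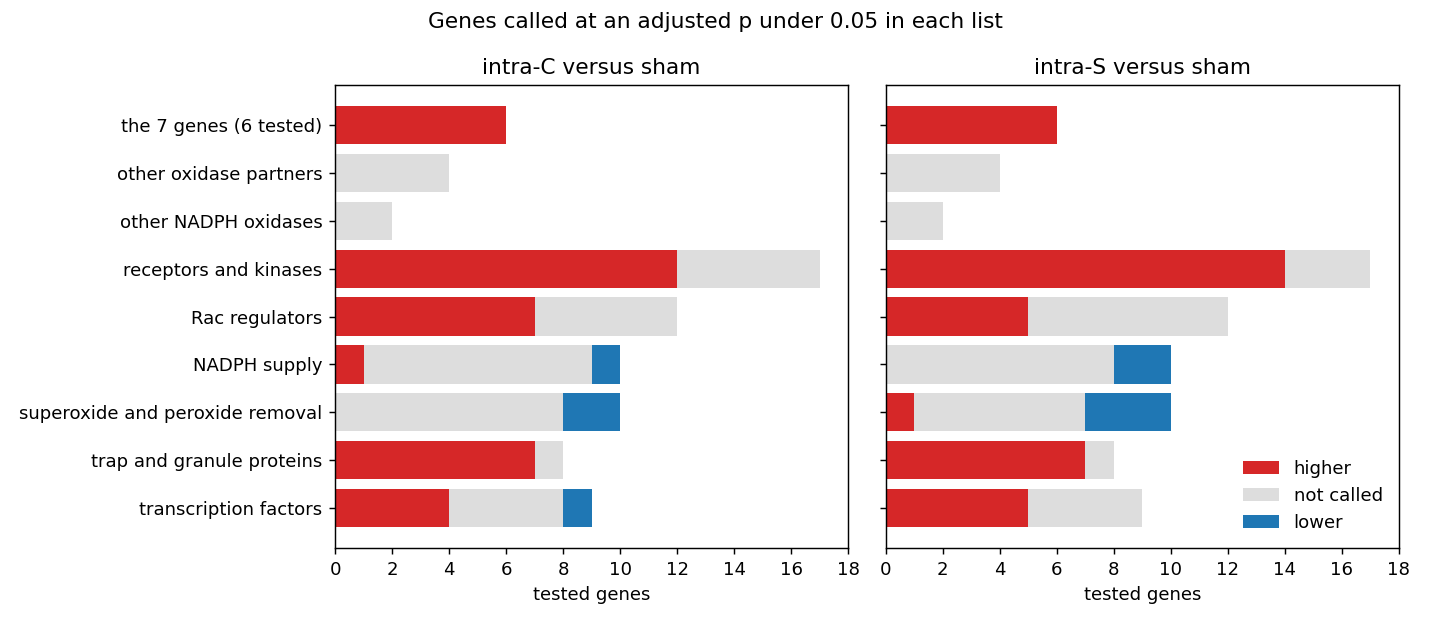
Number of tested genes called higher (red), called lower (blue) and not called (grey) at an adjusted p under 0.05 in each gene list, for intra-C versus sham (left) and intra-S versus sham (right) livers. All 6 tested genes of the 7 were called higher in both, as were 12 and 14 of 17 receptors and kinases, while 0 of the 4 other oxidase partners shown were called.

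Markers of several phagocytes and of other cells moved with the oxidase genes, and their part in the result was not tested. Of 5 markers of all leukocytes, 3 and 4 were higher in intra-C and intra-S livers, with sums of 156 and 208 CPM in intra-C, 168 and 180 CPM in intra-S and 78.3 and 82.2 CPM in sham livers. Of 10 neutrophil markers, 8 and 9 were higher in intra-C and intra-S livers, and they summed to 219 and 417 CPM in intra-C, 807 and 326 CPM in intra-S and 4.51 and 5.25 CPM in sham livers. All 8 markers of immature neutrophils were higher in both groups, and 4 of the 8 had 0 counts in both sham livers; *Mpo*, *Ctsg*, *Elane*, *Prtn3*, *Ltf* and *Camp* are also on the list of oxidase product users and trap proteins. Of 6 Kupffer cell markers, 6 and 5 were higher, with sums of 726 and 896, 403 and 825, and 149 and 146 CPM. Monocyte and macrophage markers (4 of 8 higher in each) summed to 331 and 447, 330 and 400, and 138 and 85.6 CPM. Of 5 platelet and megakaryocyte markers, 3 and 4 were higher, with sums of 14.8 and 30.6, 32.3 and 36.5, and 3.47 and 3.49 CPM. Of 5 markers of liver sinusoidal endothelial cells, 2 and 3 were higher, with sums of 204 and 216, 297 and 178, and 73.7 and 84.0 CPM. Of the epithelial tumor cell markers, 0 of 5 tested were called in intra-C livers and 1, *Krt18*, which hepatocytes express too, was higher in intra-S livers, and the sums were 274 and 244, 616 and 370, and 210.1 and 255 CPM. The 8 markers of T and NK cells, of which 0 were called, summed to 2.95 and 4.24 CPM in intra-C, 7.06 and 8.44 CPM in intra-S and 3.65 and 3.78 CPM in sham livers. The 5 markers of B cells, of which 0 were called, summed to 0.968 and 1.52, 2.33 and 3.80, and 3.33 and 3.69 CPM. Of 5 hepatocyte markers, 0 were called in intra-C livers and 1, *Cyp2e1*, was lower in intra-S livers. They summed to 145110 and 104280, 177005 and 132061, and 115108 and 107702 CPM.

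Within the tumor-bearing groups, the order of the livers differed between genes. *Padi4*, *Ncf1* and *Ncf4* were higher in intra-C replicate 2 than in replicate 1 and in intra-S replicate 1 than in replicate 2. The sums of neutrophil, immature neutrophil and liver sinusoidal endothelial markers had this order too, and its share among all genes was not counted. *Cyba* had nearly equal intra-S livers, at 19.9 and 19.8 CPM, and the other order in TPM, at 46.3 and 49.5. Across groups, *Padi4* was at 0.611 CPM in intra-C replicate 1 and 0.589 CPM in intra-S replicate 2, with neutrophil sums of 219 and 326 CPM. *Cybb* was highest in intra-C replicate 2 and lowest in intra-S replicate 1, as were both the Kupffer cell marker sum and the monocyte and macrophage marker sum, although intra-C replicate 1 and intra-S replicate 2 changed places. Relative to the pan-leukocyte gene *Ptprc*, *Cybb* had a CPM ratio of 1.21 and 1.34 in intra-C, 1.40 and 1.04 in intra-S and 0.65 and 0.675 in sham livers. The sham livers were the lowest in this ratio. The ratio of *Cyba* to *Ptprc* was 0.385 and 0.398 in intra-C, 1.02 and 0.604 in intra-S and 0.39 and 0.656 in sham livers, so that the intra-C and sham livers overlapped. These are descriptions with no test.

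**Figure D5:**
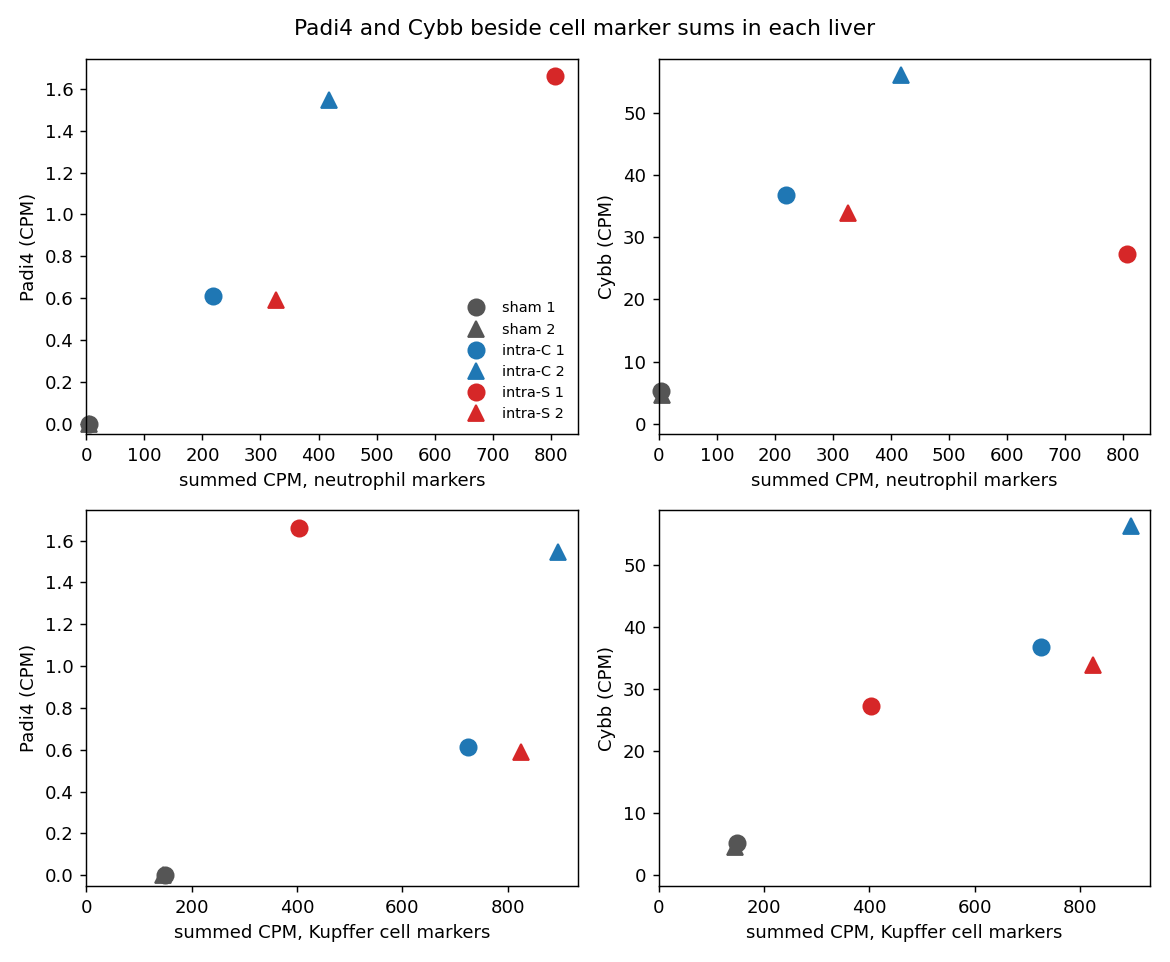
CPM of *Padi4* (left) and *Cybb* (right) against the summed CPM of the neutrophil markers (top) and the Kupffer cell markers (bottom) in each of the 6 livers, all on linear axes. *Padi4* is highest, at 1.66 CPM, in intra-S replicate 1, where the neutrophil sum of 807 CPM is also highest; *Cybb* is lowest of the tumor-bearing livers there, at 27.3 CPM, where the Kupffer cell sum of 403 CPM is also their lowest.

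The genes whose pattern over the 6 livers was nearest to each of the 6 were found among 12674 tested genes with a mean of at least 1 CPM, by the root mean square difference of log2 CPM centred on each gene's mean. For *Cybb* these were *Pira2* (0.177), *C6* (0.179) and *Cd163* (0.199), of which *C6* is on the Kupffer cell list and *Cd163* encodes a macrophage scavenger receptor. For *Ncf1* they were *Adam23* (0.144), the G-CSF receptor gene *Csf3r* (0.147), which is on the neutrophil list, and *Vcam1* (0.194). *Pira2*, *Adam23* and *Vcam1* are on none of the marker lists. The distance includes the step from sham to tumor-bearing livers that many genes share, so it assigns no cell type. The nearest genes to *Padi4* were *Cebpe* (0.271), *Ly6g* (0.357) and *Cd14* (0.369), at larger distances. *Cyba* was nearest to *Clec4a1* (0.114), *Gm52736* and *AI662270*, *Ncf4* to *Srgn* (0.125), *AB124611* and *Slc15a3*, and *Rac2* to *Gpc1* (0.104), *Arhgef2* and *Sh3kbp1*. Among the 6 tested genes, the closest pair was *Ncf1* and *Ncf4* (0.309), followed by *Cybb* and *Ncf1* (0.314), while the membrane partners *Cybb* and *Cyba* were 0.611 apart.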

How the data were processed

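Per the labels and the study's methods, poly(A) RNA of 6 livers was sequenced, reads were aligned to mm10 with HISAT2 2.1.0, and the authors counted uniquely mapped reads on exons with featureCounts (Subread 2.0.6). The authors deposited raw counts per gene and TPM values calculated from these counts and gene lengths; the annotation and the strand setting are not given in the sources used here. The counts were tested with edgeR 4.0.16 (R 4.3.3): TMM scaling, filterByExpr (count minimum 10), a quasi-likelihood fit in which all 6 livers share the spread, and Benjamini-Hochberg adjustment over 16370 genes. CPM are TMM-scaled, and 95% intervals come from this fit or, for *Padi2*, from an exact Poisson test. The study names no test for these counts. The members and gene lists were chosen with earlier results of these data known. All 7 members are described. Of each other list, the rule allowed naming oxidase and deiminase family genes, up to 3 called genes with the largest change and up to 3 with the highest TPM; not all of these are named, and genes outside this rule, *Irf8* and the remaining called genes of short counts among them, were chosen after their values were seen. A list of genes, and 1 gene of another list, are not reported here. Motifs and figures were made with Python 3.11.15 and matplotlib 3.10.9, and gene positions are those of RefSeq.

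Alternatives were DESeq2 1.42.0, no filter, only the 2 groups compared, a replicate block, no TMM scaling, TMM from all but the 100 most abundant genes, limma 3.58.1 on log2(TPM + 1) and log2(TPM + 0.1), shares of CPM, and each liver left out. No sample was left out of the main comparisons.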

Additional observations from a re-analysis of the deposited data

How the results depend on the processing

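The 6 tested genes were higher than in sham under every alternative that was run, in both comparisons. As every tumor-bearing liver lay above both sham livers for these genes, leaving a liver out could hardly turn the sign. Under the 8 alternatives that keep all livers of the groups compared, 4 to 6 of them were called in intra-C and 5 or 6 in intra-S livers. With each liver left out in turn, the number called ranged from 0 to 6 in intra-C and from 0 to 6 in intra-S livers, and it was 0 in both without either sham liver, when no gene in the table was called and the lone sham liver was assumed to vary like the other groups. Between intra-S and intra-C livers, 0 of the genes were called under every alternative. With the replicate number as a block (replicate block), 4 genes were called in intra-C and 6 in intra-S livers against 6 and 6 without it. The numbers share no stated animal or batch, and the deviations of same-numbered livers correlated at 0.118, -0.032 and 0.170, so they were not taken as pairs. Without TMM, the median log2 fold change of all tested genes moved to -0.25 in intra-C and -0.23 in intra-S livers, and the calls over all genes from 806 higher and 389 lower to 569 and 801, and from 1110 and 646 to 838 and 1115. Of 840 alternative values of called genes named here, 0 had the other sign. These genes were picked by their calls in the same livers, so this is no independent check. With limma on log2(TPM + 1) the calls over all genes were 497 and 896, and 685 and 1553, and on log2(TPM + 0.1) 589 and 890, and 804 and 1476. With only the 2 groups compared they were 2548 and 2223, and 276 and 116, and with DESeq2 1662 and 1049, and 2003 and 1397. With each liver left out in turn, the calls ranged from 0 to 2546 higher and 0 to 2112 lower in intra-C and from 0 to 3010 higher and 0 to 2683 lower in intra-S livers. Between intra-S and intra-C livers, 1312 and 1572 genes were called without intra-S replicate 2 and 24 and 31 without intra-S replicate 1, against 0 with all livers. Of the values of the 6 genes against sham, 86 kept the call with all livers kept, and 10 lost it, all of them of *Rac2* or *Padi4*. With livers left out, 37 kept the call and 35 lost it. Of 84 values of these genes between intra-S and intra-C livers, none of which was called, 7 had the other sign, 2 of them of *Ncf1* and 5 of *Padi4*. Depth limits *Padi2* and, with 24 to 57 counts per liver, *Padi4*, and 2 livers per group limit every comparison.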
